A study of Mus musculus with 2 samples.

Results

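The BTB zinc finger family was examined in the brain of Plzf lu/lu mouse embryos at E10.5, to ask whether transcripts of other family members were higher where that of Plzf (Zbtb16) was lower. Members were taken by name. All array genes called Zbtb followed by a number and any letters were included, together with Bcl6, Bcl6b, Hic1, Hic2 and Patz1. This gave 46 genes of the 37071 gene names on the array, 41 of them by the Zbtb name and 5 added by symbol, and the 46 were read by 94 probes. One of the 41, Zbtb8os, is named for its position opposite Zbtb8 and does not encode a BTB zinc finger protein, and is kept because the rule takes it. RNA of Plzf lu/lu embryos was labeled with Cy5 and RNA of wild type embryos with Cy3 on each of 2 arrays, which lay on 1 slide. The labels give the tissue as brain and the methods as forebrain and midbrain.

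Wild type embryos were of the C57BL/6 strain. Plzf lu/lu embryos carried the luxoid allele, a spontaneous point mutation that truncates the protein, on both copies of Plzf, so a probe measures the transcript that is left and not the protein. The labels describe 2 biological replicates for each genotype, and the number of embryos behind an array is not given in the sources used here. The dyes were not exchanged between the arrays, so dye and genotype cannot be told apart. With 2 arrays, p-values measure the spread between these samples, and an exact two-sided sign-flip test of a single gene cannot go below 0.5. Fewer cells of a type and less RNA per cell cannot be told apart in such tissue RNA.

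BTB zinc finger proteins join an N-terminal BTB domain to a row of C2H2 zinc fingers at the C-terminus. The fingers bind DNA, and the BTB domain pairs proteins with each other and binds co-repressors such as NCoR, and in some members the ubiquitin ligase scaffold Cul3. Most members act as repressors of transcription, and the family is best known for setting cell fates in blood and lymphocytes. Plzf itself is known for its part in limb and skeletal patterning, in the upkeep of germline stem cells and in innate-like T cells, and it is expressed in neural progenitors of the early embryo.

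Expression is given as the processed signal, a background-subtracted and dye-normalized spot intensity, and as the log2 ratio of Plzf lu/lu over wild type on each array. A gene passed the signal filter when its brightest probe reached a processed signal above 200, with a signal-to-noise ratio of 5 or more, for each genotype on each array. Of the 46 members, 22 passed and 24 did not. All but 1 of those 24 were well above background in both channels of both arrays. On the whole array 10600 of 37071 gene names passed, and these 10600 serve as the background. A limit of 1.3-fold equals 0.38 on the log2 scale.

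Zbtb16 had the lowest mean ratio of the 46 members. Its brightest probe read 433 and 546 in wild type on arrays 1 and 2, and 172 and 211 in Plzf lu/lu. The log2 ratio was -1.33 on array 1 and -1.37 on array 2, which is 2.52-fold and 2.59-fold lower in Plzf lu/lu. The probe lies at chr9:48462419-48462478 on the minus strand of mm9, at position 5037 of the transcript. In Plzf lu/lu the signal on array 1 was under the limit of 200, so Zbtb16 did not pass the filter. Its mean ratio of -1.35 had an adjusted p of 0.252 among all genes well above background and 0.506 with no filter (limma). Among the 11079 genes that passed in at least 1 channel of each array the adjusted p was 0.0448 (limma), but Zbtb16 entered that set through its wild type signal, where it is high, so this value is given as a description and not as a test of the difference.

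The second Zbtb16 probe starts at position 1672 of the transcript, and its ends lie 52017 bases apart on chromosome 9 of mm9 (48473399 to 48525415), so it reads RNA spliced over an intron. Its sequence is shown because it gives a second read of the transcript, upstream of the first probe.
Zbtb16 junction probe: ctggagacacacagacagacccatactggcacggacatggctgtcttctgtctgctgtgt
It read 32.1 and 32.2 in wild type and 17.6 and 15.1 in Plzf lu/lu. The log2 ratios were -0.87 and -1.09, in the direction of the first probe on both arrays, at a signal far below the filter limit of 200.

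By the brightest probe of each gene, only Zbtb5 among the other members was more than 1.3-fold higher in Plzf lu/lu on both arrays. None of the 22 that passed was more than 1.3-fold lower on both. The background was 2.58% of all genes that passed for higher and 0.736% for lower, so 1 of 22 was near the background share. The members' ratios were small. The mean log2 ratio of the 22 lay between -0.31 (Zbtb7c) and 0.42 (Zbtb5). No member passed limma at an adjusted p under 0.05 (background 0.0283%, 3 genes of 10600). At an adjusted p under 0.1, 4 members passed, all higher in Plzf lu/lu, namely Zbtb5, Zbtb26, Zbtb6 and Patz1 (background 12.2%). At an unadjusted p under 0.05, 8 members were higher (background 15.7%) and 1, Zbtb7c, was lower (background 12%).

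**Figure D1:**
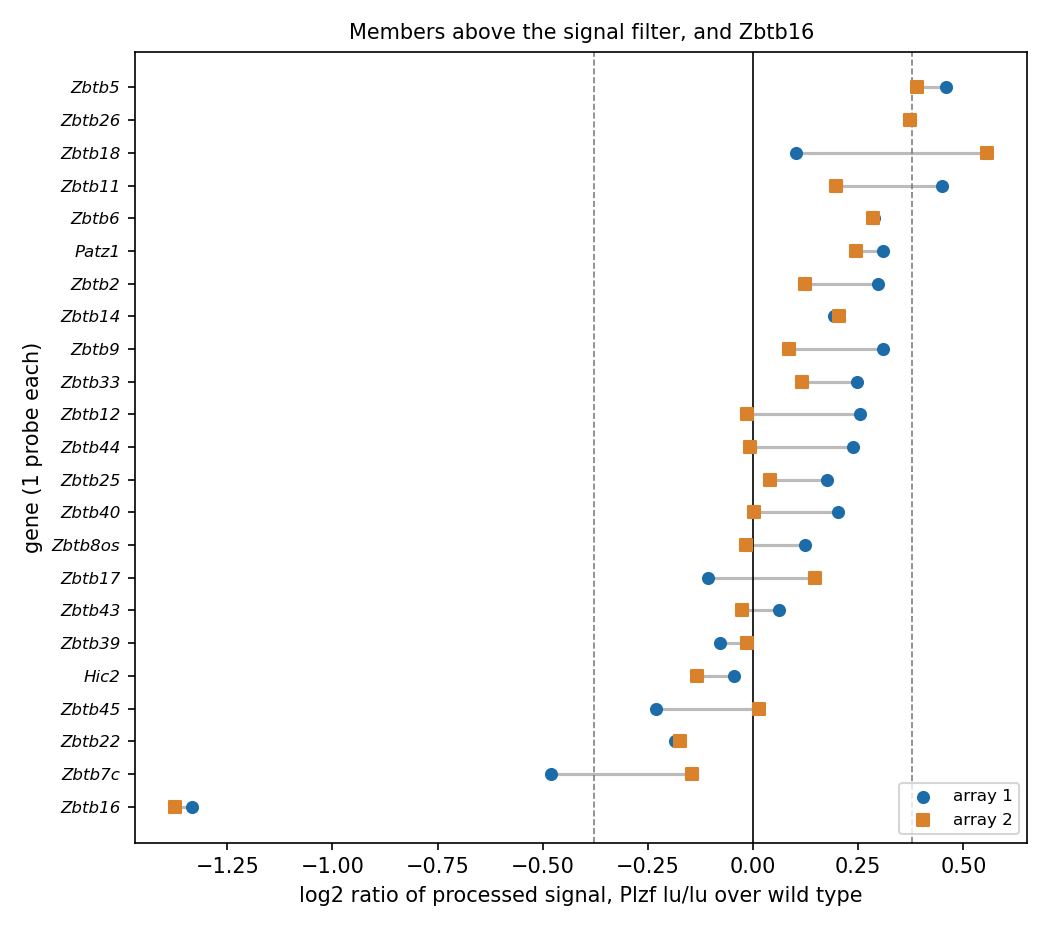
Log2 ratio of processed signal, Plzf lu/lu over wild type, for the 22 members that passed the signal filter and for Zbtb16, with 1 circle for array 1 and 1 square for array 2, joined by a grey line, and dashed lines at 1.3-fold. Zbtb16 lies at -1.33 and -1.37, and Zbtb5 is the only gene with both points beyond the right dashed line.

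Zbtb5, which is reported to repress the cell cycle inhibitor gene Cdkn1a, read 1370 and 1399 in wild type and 1883 and 1832 in Plzf lu/lu. The log2 ratios were 0.46 and 0.39, a 1.37-fold and 1.31-fold difference (unadjusted p = 0.0017, adjusted p = 0.0574, limma). The second Zbtb5 probe also passed the filter and read 1182 and 1183 in wild type and 1439 and 1359 in Plzf lu/lu. It gave smaller log2 ratios of 0.28 and 0.20, within 1.3-fold, and the mean over both probes did not pass the 1.3-fold limit on both arrays.

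Zbtb26 and Zbtb6 stand next to each other on chromosome 2, with no other protein-coding gene between them in RefSeq, and their probes lie 6568 bases apart. Zbtb26 read 296 and 302 in wild type and 384 and 391 in Plzf lu/lu. Its log2 ratio was 0.37 on each array, just inside the 1.3-fold limit (adjusted p = 0.0663, limma). Zbtb6 read 306 and 314 in wild type and 373 and 383 in Plzf lu/lu, with a log2 ratio of 0.29 on each array (adjusted p = 0.0918, limma). For both genes the arrays differed by less than 0.01 in log2 ratio. A second, dim probe of Zbtb26 gave 0.21 and -0.19, and that of Zbtb6 gave 0.13 and 0.36, so the second Zbtb26 probe did not repeat the difference. In other adjacent pairs, Zbtb25 and Zbtb1 on chromosome 12 had log2 ratios of 0.18 and 0.04 against 0.09 and -0.22, and Zbtb34 and Zbtb43 on chromosome 2 had 0.11 and -0.13 against 0.06 and -0.03. On chromosome 4, Zbtb8a lies between Zbtb8os and Zbtb8b and had -0.28 and 0.06.

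The promoters of Zbtb5, Zbtb26 and Zbtb6, the 3 with the lowest adjusted p of the 22 members that passed, are shown with the matches to 3 short motifs in capitals. The sequences are the 250 bases before the RefSeq start in GRCm38.p6, a later build than that of the array, read 5′ to 3′ on the gene's strand. The motifs, searched on both strands, were the GC box GGGCGG, the ETS core CCGGAAG and a Bcl6-type element TTCCNNGAA.
Zbtb5 (chr4:45012413-45012662, minus strand): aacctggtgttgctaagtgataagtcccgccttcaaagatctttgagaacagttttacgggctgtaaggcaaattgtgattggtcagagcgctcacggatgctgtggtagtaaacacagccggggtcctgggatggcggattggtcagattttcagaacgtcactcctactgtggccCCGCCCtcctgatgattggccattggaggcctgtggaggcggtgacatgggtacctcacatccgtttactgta
Zbtb26 (chr2:37443173-37443422, minus strand): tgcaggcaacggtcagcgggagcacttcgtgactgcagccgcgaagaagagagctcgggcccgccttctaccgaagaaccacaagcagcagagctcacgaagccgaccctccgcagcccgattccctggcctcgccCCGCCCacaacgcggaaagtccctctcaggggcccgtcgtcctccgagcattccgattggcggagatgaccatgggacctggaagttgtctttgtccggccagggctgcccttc
Zbtb6 (chr2:37430920-37431169, minus strand): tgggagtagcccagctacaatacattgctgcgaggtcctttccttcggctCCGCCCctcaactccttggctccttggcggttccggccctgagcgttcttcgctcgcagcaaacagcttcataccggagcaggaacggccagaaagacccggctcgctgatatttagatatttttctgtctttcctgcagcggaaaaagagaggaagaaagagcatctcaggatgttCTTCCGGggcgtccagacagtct
Each of the 3 held 1 GC box, and the promoter of Zbtb6 held 1 ETS core as well. A GC box was present in 62.5% of the 56 promoter entries of members, against 32.7% of all 32851 entries, and an ETS core in 16.1% against 6.91%. A Bcl6-type element was present in 1.79% of member entries and 4.06% of all. The member entries, which cover 40 of the 46 genes, held a median of 19.5 CpG dinucleotides in 250 bases, against 6 over all entries. A match describes the letters only, and the same motifs are common outside the family.

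Patz1 (MAZR), which regulates Cd8 genes in T cells, gave different answers from its probes. The brightest probe, at position 3039 of its transcript, read 1535 and 1480 in wild type and 1902 and 1753 in Plzf lu/lu, with log2 ratios of 0.31 and 0.24 (adjusted p = 0.0990, limma). A probe at position 1874 read 325 and 282 in wild type and 244 and 235 in Plzf lu/lu, with log2 ratios of -0.41 and -0.26. The other 2 probes lay between, with log2 ratios of 0.07 and 0.17 and of -0.15 and -0.14, the latter below the filter. Patz1 was the only member whose passing probes disagreed in sign by more than 0.5 in log2, and its mean over the 3 passing probes was 0.02. The files assign the first pair of probes to 1 RefSeq transcript and the other 2 to a different transcript each. In mm9 the last 2 start at chr11:3195270 and chr11:3194546, upstream of the probes at chr11:3207861 and chr11:3209026 on the plus strand.

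Zbtb7c read 872 and 726 in wild type and 624 and 657 in Plzf lu/lu. Its log2 ratio was -0.48 on array 1 and -0.15 on array 2, beyond 1.3-fold on array 1 alone (unadjusted p = 0.0242, adjusted p = 0.129, limma). Its second probe, below the filter, gave -0.43 and -0.24, so both probes were lower on both arrays. Zbtb22 was lower by a similar amount on each array, with 279 and 277 in wild type, 245 and 246 in Plzf lu/lu and log2 ratios of -0.19 and -0.17 (adjusted p = 0.187, limma). With median centring in place of LOWESS, which moved the median of all genes that passed to 0.55, both turned above 0 (0.22 for Zbtb7c and 0.23 for Zbtb22) but lay below that median.

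**Figure D2:**
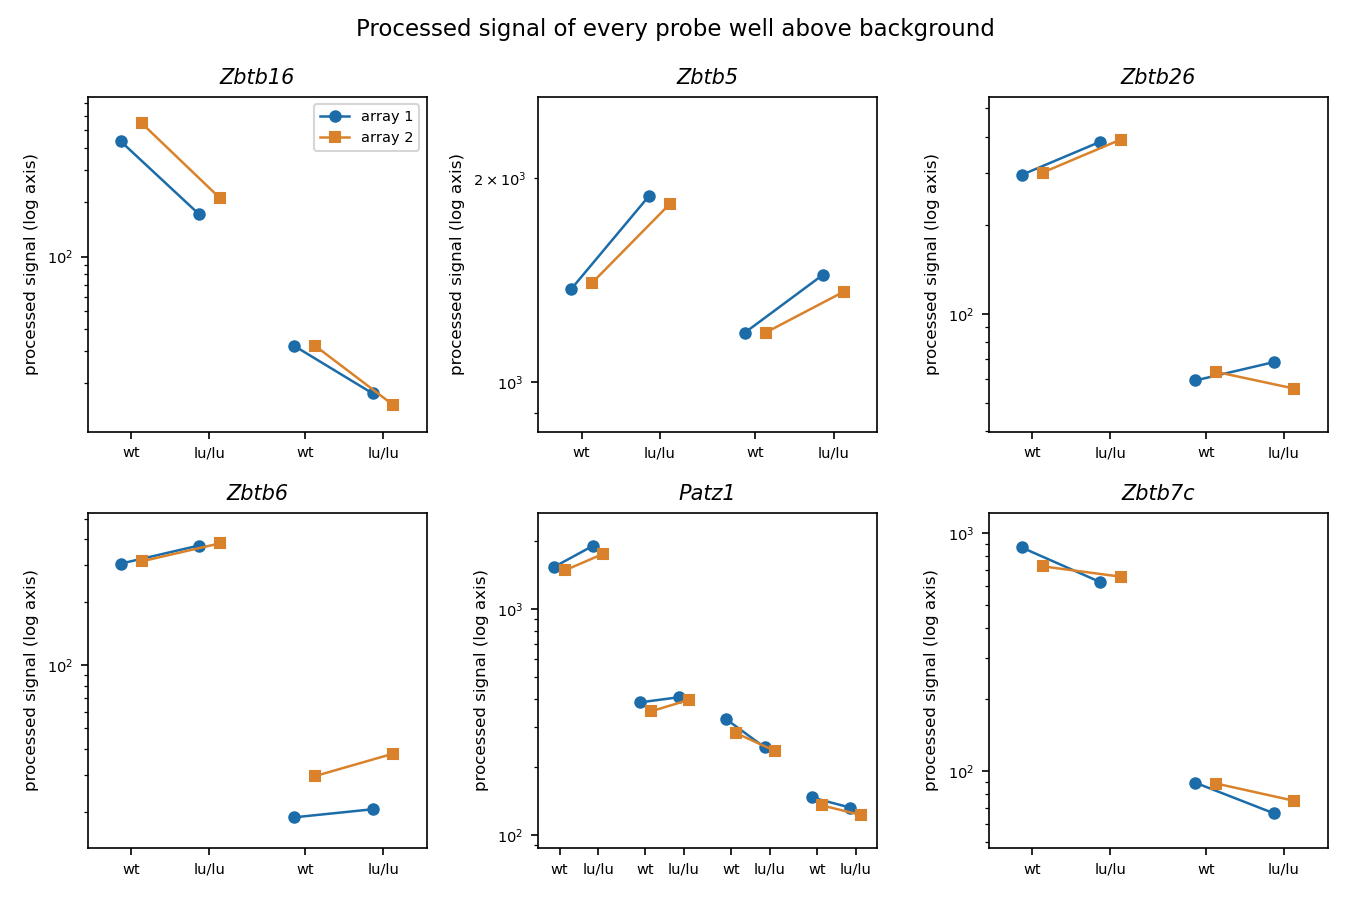
Processed signal on a log axis for every probe well above background of Zbtb16, Zbtb5, Zbtb26, Zbtb6, Patz1 and Zbtb7c, with wild type (wt) and Plzf lu/lu of an array joined by a line, circles for array 1 and squares for array 2, and the probes of a gene side by side. Both Zbtb16 probes and both Zbtb7c probes go down, both Zbtb5 probes go up, and the Patz1 probes go both ways.

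Of 9 members known from brain development, 4 passed the filter, and these 4 did not share a direction. Over the whole array 10600 of 37071 gene names passed. Zbtb18 (RP58), a repressor needed for the differentiation of cortical neurons, read 382 and 367 in wild type and 409 and 539 in Plzf lu/lu. Its log2 ratios of 0.10 and 0.56 came mainly from array 2 (unadjusted p = 0.0374, adjusted p = 0.157, limma). Zbtb20, known for hippocampal patterning, stayed below the filter at 106.6 and 101.7 in wild type and 132.1 and 163.8 in Plzf lu/lu, with log2 ratios of 0.31 and 0.69, and its next probe gave 0.01 and 0.60. The 7 markers of forebrain and midbrain neuroepithelium that passed the filter had a median log2 ratio of 0.38 on array 1 and 0.47 on array 2, and their part in the values of Zbtb18 and Zbtb20 was not tested. Zbtb14, a repressor at GC-rich promoters, read 426 and 450 in wild type and 487 and 518 in Plzf lu/lu, with log2 ratios of 0.19 and 0.20 (adjusted p = 0.161, limma), and its other 2 probes were also above 0 on both arrays.

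Hic2, a relative of the tumor suppressor Hic1, read 1304 and 1391 in wild type and 1263 and 1268 in Plzf lu/lu, with log2 ratios of -0.05 and -0.13 (adjusted p = 0.472, limma). Its second probe gave -0.15 and -0.45. Zbtb45, linked to glial differentiation, had -0.23 and 0.01. Hic1, Bcl6 and Zbtb4 were below the filter in signal. Hic1 went opposite ways on the 2 arrays (-0.30 and 0.61). Bcl6, which promotes the step from progenitor to neuron in the cortex, had 0.26 and 0.19. The brightest probe of Zbtb4 had 0.06 and 0.11. A second, dimmer Zbtb4 probe read 33.9 and 33.1 in wild type and 48.2 and 47.2 in Plzf lu/lu. Its log2 ratio was 0.51 on each array, beyond 1.3-fold, so the 2 probes differed. Of the 9 genes listed for neural development, 4 passed the filter and none of these 4 was beyond 1.3-fold on both arrays, and Zbtb16, which is also listed, was lower as given above.

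Of 12 listed members known from blood and immune cells, 3 passed the filter, namely Patz1, Zbtb17 and Zbtb25. This was near the share over the whole array (10600 of 37071 gene names). Zbtb17 (Miz1), a partner of Myc, had log2 ratios of -0.11 and 0.15, and Zbtb25 had 0.18 and 0.04. Zbtb7b (ThPOK), which sets CD4 T cell fate, read 19.4 and 22.2 in wild type and 30.4 and 24.9 in Plzf lu/lu. Zbtb32 was the 1 member not well above background in all channels, since it failed in wild type on array 1, and read 10.0 and 10.3 in wild type and 13.7 and 13.1 in Plzf lu/lu. Zbtb1, Zbtb7a, which silences fetal globin genes, Zbtb24 and Zbtb46, a marker of classical dendritic cells, read between 51.2 and 159 in every channel, with mean log2 ratios from -0.07 to 0.25. The highest, Zbtb46, had 0.45 and 0.04 by its brightest probe. Another Zbtb46 probe of similar signal gave -0.18 and -0.16, and the mean over its probes was -0.004.

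Bcl6b, a close relative of Bcl6, read 167 and 132 in wild type and 108 and 110 in Plzf lu/lu. Its log2 ratios of -0.62 and -0.27 made it the lowest of the dim members after Zbtb16. Markers of endothelium, 6 of 6 well above background, were lower in the median as well (log2 ratio -0.54). Of the 6, 3 were lower beyond 1.3-fold on both arrays (background 2.07%), while Pecam1 had 0.04 on array 1 and -0.34 on array 2. The summed signal of the 6 was 4730 and 5221 in wild type and 4027 and 3757 in Plzf lu/lu. The part of endothelium in the Bcl6b value was not tested.

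The members that bind methylated DNA were Zbtb33, Zbtb38 and Zbtb4, the last given above. Zbtb33 (Kaiso) read 384 and 397 in wild type and 455 and 431 in Plzf lu/lu, with log2 ratios of 0.25 and 0.12 (adjusted p = 0.203, limma). Zbtb38 was dim, with 0.47 and 0.14, and only 2 of its 7 probes were well above background. Of the members tied to telomeres, Zbtb40 passed the filter and had log2 ratios of 0.20 and 0.00, while Zbtb10 had 0.37 and -0.18 and Zbtb48 had 0.13 and 0.22.

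Of the other members that passed, Zbtb11, mutated in a form of intellectual disability, read 459 and 523 in wild type and 627 and 599 in Plzf lu/lu. Its log2 ratios were 0.45 and 0.20, beyond 1.3-fold on array 1 alone (unadjusted p = 0.0136, adjusted p = 0.105, limma). Zbtb2, a repressor of the p53 pathway, had 0.30 and 0.12 (unadjusted p = 0.0461, limma), and Zbtb9 had 0.31 and 0.09. Zbtb12, Zbtb44, Zbtb43 and Zbtb8os changed sign between the arrays, as did Zbtb17 and Zbtb45. Zbtb39 had -0.08 and -0.01.

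Over the 22 members that passed, 12 were above 0 on both arrays (background 37.3%), 4 were below 0 on both (background 35.4%) and 6 changed sign. The median log2 ratio was 0.12, against 0.01 over all genes that passed. It was 0.20 on array 1 and 0.06 on array 2. The spread between arrays had a median SD of 0.0983 over members and 0.0844 over all genes. The ratios of the 2 arrays had a Pearson r of 0.58 and a Spearman rho of 0.62 over the 22 members, which share slide, dyes and probes, so this is a description only.

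The 22 dim members that were well above background, Zbtb16 left out, are described apart because their signals were low. Above 0 on both arrays were 12 (background 33.4% of genes well above background), below 0 on both were 2 (background 33.2%), and 8 changed sign, with a median log2 ratio of 0.19 against 0.00 over all 23283 genes well above background. By the brightest probe, none was beyond 1.3-fold on both arrays in either direction (background 2.52% for higher and 2.07% for lower). The second Zbtb4 probe was, as given above. Zbtb3, with -0.09 on both arrays, and Bcl6b were the 2 below 0 on both. Zbtb21, Zbtb37, Zbtb41, Zbtb42 and Zbtb49 had mean log2 ratios between 0.18 and 0.39, with Zbtb21 and Zbtb41 of opposite sign on the 2 arrays. The widest gaps between arrays were in Hic1 and Zbtb8b, the latter with 0.74 and -0.12.

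**Figure D3:**
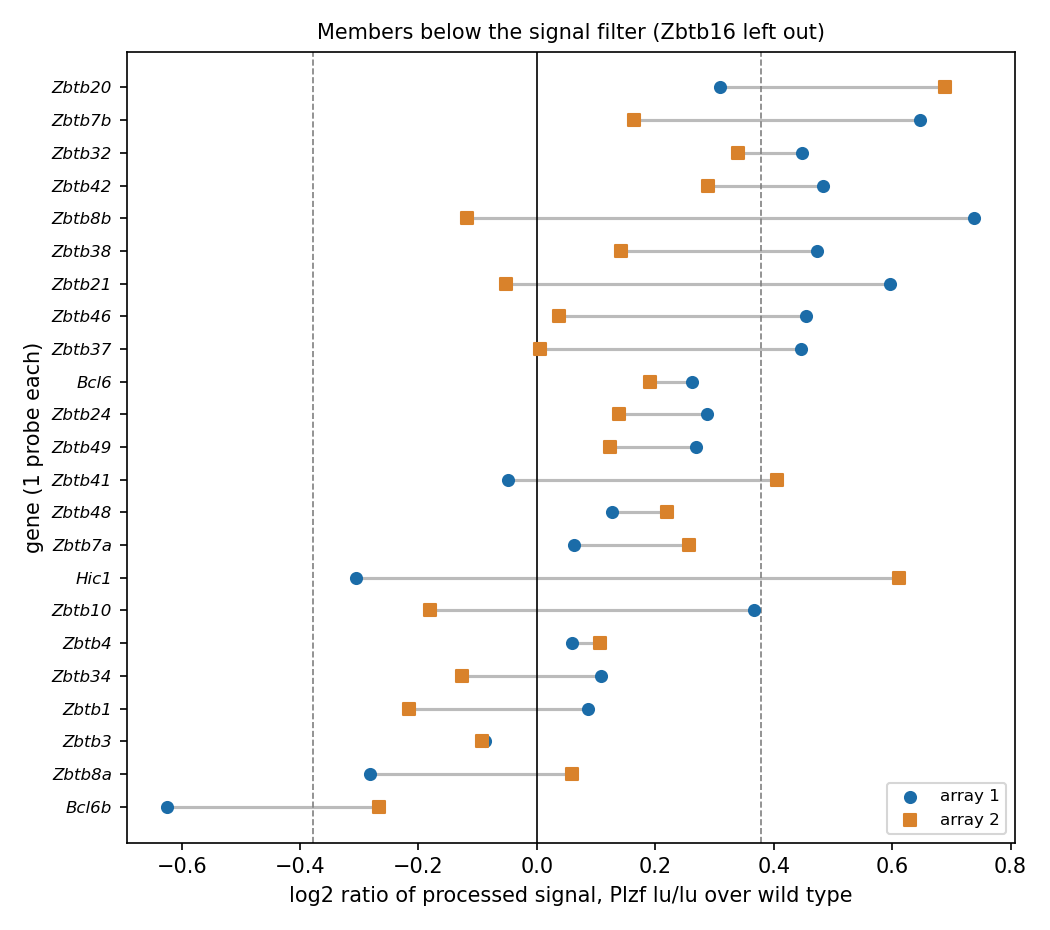
Log2 ratio of processed signal, Plzf lu/lu over wild type, for the 23 members other than Zbtb16 that did not pass the signal filter, with circles for array 1, squares for array 2 and dashed lines at 1.3-fold. No gene has both points beyond the same dashed line, and Hic1 and Zbtb8b span the widest ranges.

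Second probes were compared within genes. They read the same labeled RNA on the same 2 arrays and dyes, so a shared sign is a description and does not test the genotype. Of 29 further member probes that were well above background, in 22 genes, 22 had the sign of the brightest probe of their gene (75.9%). The same share over 10616 probes of other genes was 54.5%. The 29 include the second Zbtb16 probe. Of the 7 further probes above the filter, 5 had the same sign, and the other 2 belonged to Patz1 and Zbtb8os.

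Families that share a domain with the members were also above 0 in the median. Of 337 genes named Zfp and a number, mostly zinc finger genes without a BTB domain, 174 passed the filter with a median log2 ratio of 0.08. Beyond 1.3-fold on both arrays, 9 of the 174 were higher (background 2.58%) and none lower (background 0.736%). Of 37 genes named Klhl and a number, which join a BTB domain to kelch repeats, 10 passed with a median of 0.19. None of the 10 was beyond 1.3-fold on both arrays. The 32 Klhl genes well above background had a median of 0.08. Of these 32, 4 were lower beyond 1.3-fold on both arrays (background 2.07%) and 0 higher (background 2.52%). Whether the families differ was not tested.

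**Figure D4:**
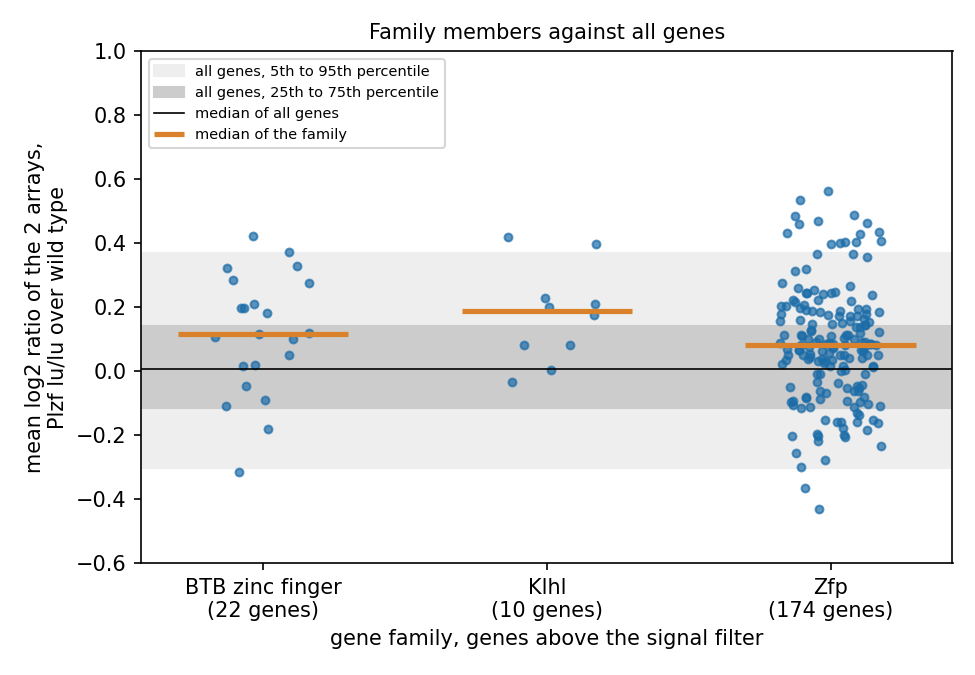
Mean log2 ratio of the 2 arrays, Plzf lu/lu over wild type, of each gene that passed the filter in the BTB zinc finger (22), Klhl (10) and Zfp (174) families, 1 dot per gene, with an orange bar at the family median and grey bands for the spread of all genes that passed. The medians of 0.12, 0.19 and 0.08 lie above the median of all genes, inside or just above the band that holds the middle of all genes.

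Of 16 listed co-repressors and ubiquitin ligase components, not all of which bind the BTB domain itself, 14 passed the filter, with a median log2 ratio of 0.20. Above 0 on both arrays were 11 (background 37.3%), and below 0 on both were 3 (background 35.4%). Hdac7, a histone deacetylase, was the only one beyond 1.3-fold on both (0.47 and 0.43, background 2.58% for higher). Ncor1, which encodes the co-repressor NCoR, had 0.20 and 0.21, and Cul3 had 0.01 and 0.03. The 3 below 0 on both arrays were Hdac3, Hdac5 and Sin3a. A search for 11 older or other symbols, not all of them of further family genes, found 4 on the array. Of these 4, 2 passed, Zfp131 with 0.25 and 0.15 and Gzf1 with -0.25 and -0.23, in opposite directions.

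The base composition of the probes moved with the ratio. Over the 22 members, the G+C content of the probe and the mean log2 ratio had a Spearman rho of -0.70, and over all genes that passed it was -0.33. The members' probes had a median G+C content of 37.5%, against 41.7% over all genes that passed. The 5 highest members had probes of 35% to 45% and the 5 lowest had probes of 38.3% to 55%. With the trend on G+C removed, the members' median was 0.12, against 0.01 over all genes that passed. The medians of the Zfp and Klhl genes were then 0.08 and 0.12. Above 0 on both arrays were 12 members (background 37.7%), 11 of which were so without the removal (Zbtb18 left and Zbtb17 entered). At an unadjusted p under 0.05 (limma), 5 members rather than 8 were higher (background 15.4%). Zbtb5 had 0.51 and 0.41 in that setting and remained beyond 1.3-fold on both arrays, while Zbtb26 had 0.26 and 0.33 and Zbtb6 had 0.17 and 0.24.

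**Figure D5:**
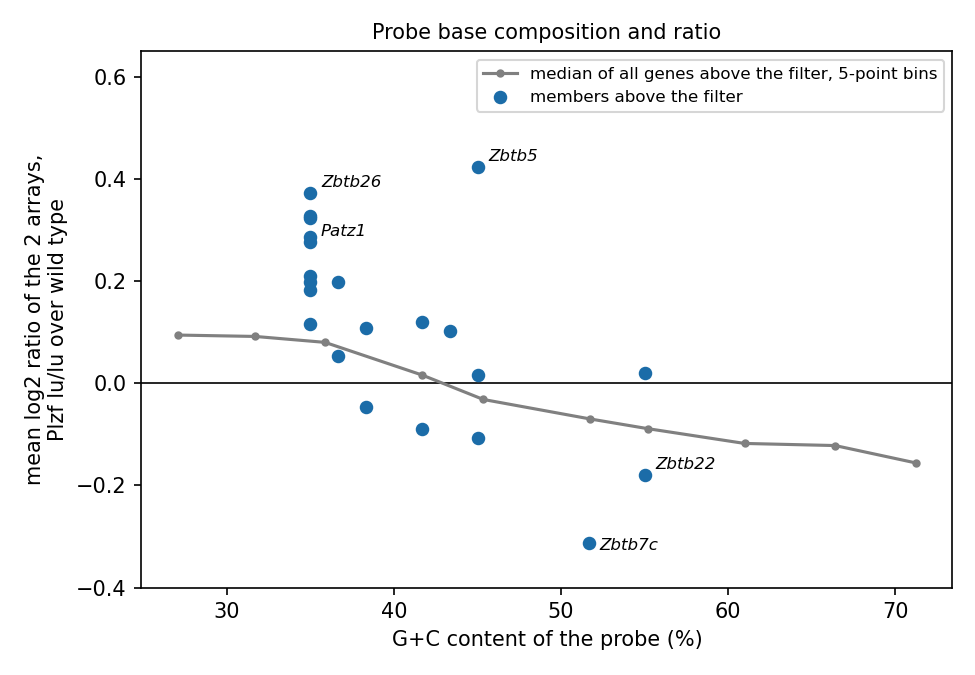
Mean log2 ratio of the 2 arrays, Plzf lu/lu over wild type, against the G+C content of the probe for the 22 members that passed (dots), with the median of all genes that passed in bins of G+C content (grey line, bins of at least 20 genes). The line falls from left to right and the members fall with it, and Zbtb5 lies far above the line at 45% G+C.

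The tissue label was checked on marker genes. Of 8 genes of forebrain and midbrain neuroepithelium 7 passed the filter, with a median log2 ratio of 0.39. Of these 7, 5 were above 0 on both arrays (background 37.3%), while Lhx2 (-0.18 and 0.86) and Nes (-0.08 and 0.44) changed sign. En1 read 3.86 or less in each channel. None of 6 hindbrain genes passed, and Hoxb3 was the only one above 100 in any channel. Of the 6, 2 were well above background, Hoxb3 (-0.21 and -0.04) and Gbx2. Gbx2 read 34.7 and 38.7 in wild type and 7.29 and 9.93 in Plzf lu/lu, with log2 ratios of -2.25 and -1.96. Globins and other erythroid genes passed for 6 of 8, with a median of -0.98 on array 1 and 0.07 on array 2. The members' median was 0.20 on array 1, of opposite sign, and 0.06 on array 2. Of 4 macrophage genes 2 passed (median -0.27), while the median of all 4, each well above background, was -0.03. Of 3 lymphoid genes Cd3e alone passed (-0.20 and -0.15). All 5 genes of mesenchyme and neural crest passed (median -0.21). Of these 5, 3 were below 0 on both arrays (background 35.4%), and 1, Twist1, was above 0 on both (0.07 and 0.02). The part of tissue makeup in the members' values was not tested.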

How the data were processed

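RNA of Plzf lu/lu (Cy5) and wild type (Cy3) embryonic brain was hybridized on 2 Agilent mouse arrays. The authors processed the scans with Feature Extraction 10.7.3.1, which corrected for background, used surrogates for dim spots and balanced Cy3 against Cy5 by LOWESS on each array separately. The deposited values are processed and raw intensity, the log10 ratio of Cy5 over Cy3, and a table of log2 ratios by the authors. Probe positions are in mm9.

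Control and outlier spots were left out, no member spot being among the latter, and no member spot was saturated. The log2 ratio was computed from processed signals, and each gene was represented by its brightest probe. Genes above 200 in signal and with a signal-to-noise ratio of 5 or more, for each genotype on each array, were fitted with limma 3.58.1 in R 4.3.3 (intercept only, Benjamini-Hochberg over all such genes). The limits on signal, signal-to-noise and fold (1.3) are those of the study's methods, and requiring the fold on both arrays was chosen here. Alternatives were normexp background correction (offset 50) with loess or median centring, the deposited log2 table, other filters, the mean over probes, removal of the G+C trend (lowess, span 0.67), a limma trend, unpaired channels, other limits and each array alone. No depth applies to arrays, and their number limits the precision.

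Members, lists and tests were chosen with earlier results of these data known. Values are given in full for Zbtb16, members beyond 1.3-fold on both arrays in the same or opposite directions, the 5 highest and 5 lowest, those with an unadjusted limma p under 0.05, those in role lists, and those whose probes disagree. The rule's comparison of BTB protein sequences was not made, and some listed genes are not reported by name here. The code was tested on simulated data with variances drawn from the fitted limma model and, separately, resampled from the genes, and limma's recovery depended strongly on that choice, so its counts of calls depend on the variance model. Promoters are from RefSeq (GRCm38.p6).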

Additional observations from a re-analysis of the deposited data

How the results depend on the processing

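With normexp and median centring, which moved the median of all genes that passed to 0.55, the members' median was 0.63, 15 of 22 members were beyond 1.3-fold higher (63.2% of all genes that passed), 20 passed limma (91% of all), and Hic2 (0.45), Zbtb22 (0.23), Zbtb39 (0.35), Zbtb45 (0.37) and Zbtb7c (0.22) turned above 0. No member was higher on both arrays beyond 1.5-fold (0), nor in the mean over probes (0). Members lower on both arrays numbered 1 (Zbtb16) with the filter on well above background, 1 in at least 1 channel and 1 with no filter. With the filter in at least 1 channel, limma's 1 member was Zbtb16, which entered through its wild type signal and is no test. Limma passed 1 with a trend in the variance (Zbtb5, adjusted p = 0.0462, with 393 genes passing in all) and 4 at an adjusted p under 0.1. Over the alternatives, the adjusted p of Zbtb5 ranged from 7.25e-11, with median centring, to 0.538. Zbtb16 was at -1.20 with normexp and loess, -0.79 with normexp and median centring, and -1.17 in the mean over probes, below 0 in each. Zbtb8os was at -0.012 in the mean over probes and -0.0074 with the G+C trend removed.

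With array 1 left out, Zbtb5 (0.39) and Zbtb18 (0.56) were beyond 1.3-fold higher. With array 2 left out, Zbtb5 (0.46) and Zbtb11 (0.45) were beyond 1.3-fold higher and Zbtb7c (-0.48) lower. The share over all genes was not computed for a single array, so these values are descriptions only. The values without an array lay between -0.015 and 0.25 for Zbtb12, -0.11 and 0.15 for Zbtb17, -0.027 and 0.062 for Zbtb43, -0.0062 and 0.24 for Zbtb44, -0.23 and 0.014 for Zbtb45, and -0.018 and 0.12 for Zbtb8os. The cause of these changes was not tested. The genotypes are paired on each array through the ratio. Without that pairing limma also passed 0 members at an adjusted p under 0.05, and 0 of all 10600 genes.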
